A study of Mus musculus with 7 samples.

Results

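A given list of 37 granulocyte granule and priming genes was followed in sorted LT-HSCs, the long-term repopulating stem cells of blood, among 53458 genes quantified. By textbook knowledge 9 were placed in the primary and priming stage, 11 in the secondary stage and 11 in the late stage, 4 are made at no single stage, and 2 belong to basophil and eosinophil granules. All 37 passed the filter on low counts, as did 20314 genes in all. The 3 Srp72+/- libraries and the 4 WT (Srp72+/+) libraries came from aged C57/BL6 mice, with 1 library per mouse as far as the study's design text says. The Srp72+/- mice carry 1 altered copy of Srp72; the altered part of the gene, the age in months and the sex are not given in the sources that were used. Marrow cells were sorted as negative for Ter119, B220, CD3, Mac1, Gr1, Flt3 and CD48 and positive for Sca1, cKit and CD150. Mac1 holds the product of Itgam, and the Gr1 antibody binds the products of Ly6g and Ly6c2, so the sort selected against the proteins of 3 of the listed genes. RNA was amplified from small inputs before library construction.

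Granulocytes kill microbes with proteins that they make early in their development and store in granules. The granules form in waves: primary (azurophil) granules in promyelocytes hold myeloperoxidase and serine proteases, secondary (specific) granules in myelocytes hold lactoferrin, cathelicidin and lipocalin, and the calprotectin subunits, gelatinase and receptors of mobile neutrophils come last. The transcription factors PU.1 and C/EBP are known to drive these genes in turn, and low levels of the earliest ones in stem and progenitor cells are called myeloid priming. Granule proteins enter the secretory pathway, to which nascent chains are brought by the signal recognition particle, the complex that contains Srp72.

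Library totals ran from 18054322 to 35247472 estimated reads. A level of 3 counts served as the limit of detection and corresponded to between 0.091 and 0.192 CPM, counts scaled to library size. Srp72 itself stood at 71.9, 45.7 and 109.8 CPM in Srp72+/- 1, 2 and 3, against 99.6, 136.6, 103.0 and 88.4 CPM in WT 1, 2, 3 and 4. The groups overlapped, and the difference was not past the threshold (log2 fold change -0.50, SE 0.32, edgeR quasi-likelihood test, Benjamini-Hochberg adjusted p = 0.9998). The library labelled WT 2 stood apart from the LT-HSC label. Its 12 stem cell markers summed to 198 CPM, against 2130 to 2900 CPM in the other WT libraries and 1480 to 2340 CPM in the Srp72+/- libraries, and Procr lay at or under 3 counts. Srp72+/- 1 had the next lowest sum, 1480 CPM. The genes of the 3 antigens sorted for summed to 120 CPM in WT 2 and 469 CPM in Srp72+/- 1, against 663 to 918 CPM in the other libraries. Results that rest on WT 2 are given with and without it.

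Promoters of 6 of the genes are shown because their genes carry the results: Mpo and Elane stand for the primary stage, Ngp for the secondary stage and S100a8 and S100a9 for the late stage, while Gstm1 had the smallest range over the libraries. Each runs from 250 bases before to 50 bases after the start in RefSeq on GRCm38.p6, read 5′ to 3′ on the strand of the gene. Capitals mark the letters searched for on both strands, TTNNGNAA for C/EBP (reverse complement TTNCNNAA) and GAGGAA for PU.1 (reverse complement TTCCTC). The windows are chr11:87793534-87793833, plus strand for Mpo; chr10:79886062-79886361, plus strand for Elane; chr9:110419558-110419857, plus strand for Ngp; chr3:90668821-90669120, plus strand for S100a8; chr3:90695672-90695971, minus strand for S100a9; and chr3:108017924-108018223, minus strand for Gstm1.
Mpo: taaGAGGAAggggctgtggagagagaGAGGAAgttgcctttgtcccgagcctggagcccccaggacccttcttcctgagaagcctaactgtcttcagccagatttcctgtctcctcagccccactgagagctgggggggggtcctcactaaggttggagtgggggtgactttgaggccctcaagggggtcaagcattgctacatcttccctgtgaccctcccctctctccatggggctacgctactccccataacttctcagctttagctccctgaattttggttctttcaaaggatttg
Elane: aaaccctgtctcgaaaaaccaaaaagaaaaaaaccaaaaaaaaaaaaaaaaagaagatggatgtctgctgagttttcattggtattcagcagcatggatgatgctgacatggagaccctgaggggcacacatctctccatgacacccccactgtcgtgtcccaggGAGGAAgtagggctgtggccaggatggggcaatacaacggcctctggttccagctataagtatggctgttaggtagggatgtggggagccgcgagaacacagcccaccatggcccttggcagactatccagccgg
Ngp: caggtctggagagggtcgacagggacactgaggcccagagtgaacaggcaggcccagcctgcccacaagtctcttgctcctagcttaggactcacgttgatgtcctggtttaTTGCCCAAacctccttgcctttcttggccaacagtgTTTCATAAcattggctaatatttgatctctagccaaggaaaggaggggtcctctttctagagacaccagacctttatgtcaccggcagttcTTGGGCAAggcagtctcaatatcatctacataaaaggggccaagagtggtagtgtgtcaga
S100a8: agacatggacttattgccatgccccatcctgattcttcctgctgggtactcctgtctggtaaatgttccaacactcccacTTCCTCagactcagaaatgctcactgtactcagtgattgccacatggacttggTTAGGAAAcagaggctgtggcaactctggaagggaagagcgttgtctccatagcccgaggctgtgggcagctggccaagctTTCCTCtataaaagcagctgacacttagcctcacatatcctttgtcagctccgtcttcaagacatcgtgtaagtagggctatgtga
S100a9: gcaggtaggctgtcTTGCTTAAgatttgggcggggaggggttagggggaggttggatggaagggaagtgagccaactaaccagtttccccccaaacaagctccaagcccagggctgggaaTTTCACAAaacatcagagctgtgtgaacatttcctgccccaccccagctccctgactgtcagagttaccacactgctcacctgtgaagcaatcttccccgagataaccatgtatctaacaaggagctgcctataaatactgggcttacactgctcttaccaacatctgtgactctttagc
Gstm1: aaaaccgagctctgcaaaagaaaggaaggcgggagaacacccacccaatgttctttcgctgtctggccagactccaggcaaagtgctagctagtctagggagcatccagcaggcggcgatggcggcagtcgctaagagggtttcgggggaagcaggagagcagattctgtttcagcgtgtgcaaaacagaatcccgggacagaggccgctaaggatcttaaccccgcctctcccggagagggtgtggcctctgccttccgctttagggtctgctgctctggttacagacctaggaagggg

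Windows were found for 32 of the 37 genes, all but Prg2, Mmp9, Wfdc21, Prss57 and Hp, and the motifs were chosen after the data had been seen. The PU.1 letters occurred in 19 of the 32 windows (59.4%) and in 28.3% of the windows of 27025 genes. The C/EBP letters also occurred in 19 of the 32 (59.4%), against 40.7% of all windows. By stage, the C/EBP letters were present in 2 of 8 primary, 7 of 9 secondary and 7 of 10 late windows, and the PU.1 letters in 6 of 8, 5 of 9 and 6 of 10. Both sets of letters shared a window in 12 of the 32 (37.5%), against 11.8% of all windows. The Gstm1 window held neither, and nor did those of Camp, Mcemp1, Nkg7, Padi4 and Calr3. Among these, Camp varied 256-fold and Mcemp1 593-fold over the libraries, against 9.40-fold for Nkg7 and 3.48-fold for Padi4. Windows without either set of letters thus belonged to genes of wide and of narrow range. A match is a description of letters and shows no binding. For Mpo, the annotated transcript with most of the gene's reads starts at chr11:87794209, past the end of its window at chr11:87793833. Its letters therefore do not describe the start of that transcript.

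Granule transcripts were present in every library sorted as LT-HSCs, at levels that differed widely between libraries of one genotype. Summed over all 37 genes, they stood at 17500, 8000 and 2060 CPM in Srp72+/- 1, 2 and 3, against 526, 52500, 11900 and 4270 CPM in WT 1, 2, 3 and 4. The highest and the lowest sum were both WT, and the 3 Srp72+/- sums lay between them. WT 2 was the highest of the 7 libraries for 36 of the 37 genes, where it was the highest for 22.8% of the 20314 genes tested. The exception was Calr3, a calreticulin relative best known in testis, which stayed between 0.13 and 1.29 CPM, near the limit of detection. WT 1 was the lowest for 33 genes, against 12.2% of all genes; the exceptions were Prss57, Calr3, Padi4 and Gstm1. In bulk RNA, fewer granule-bearing cells and less granule RNA per cell cannot be told apart.

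**Figure D1:**
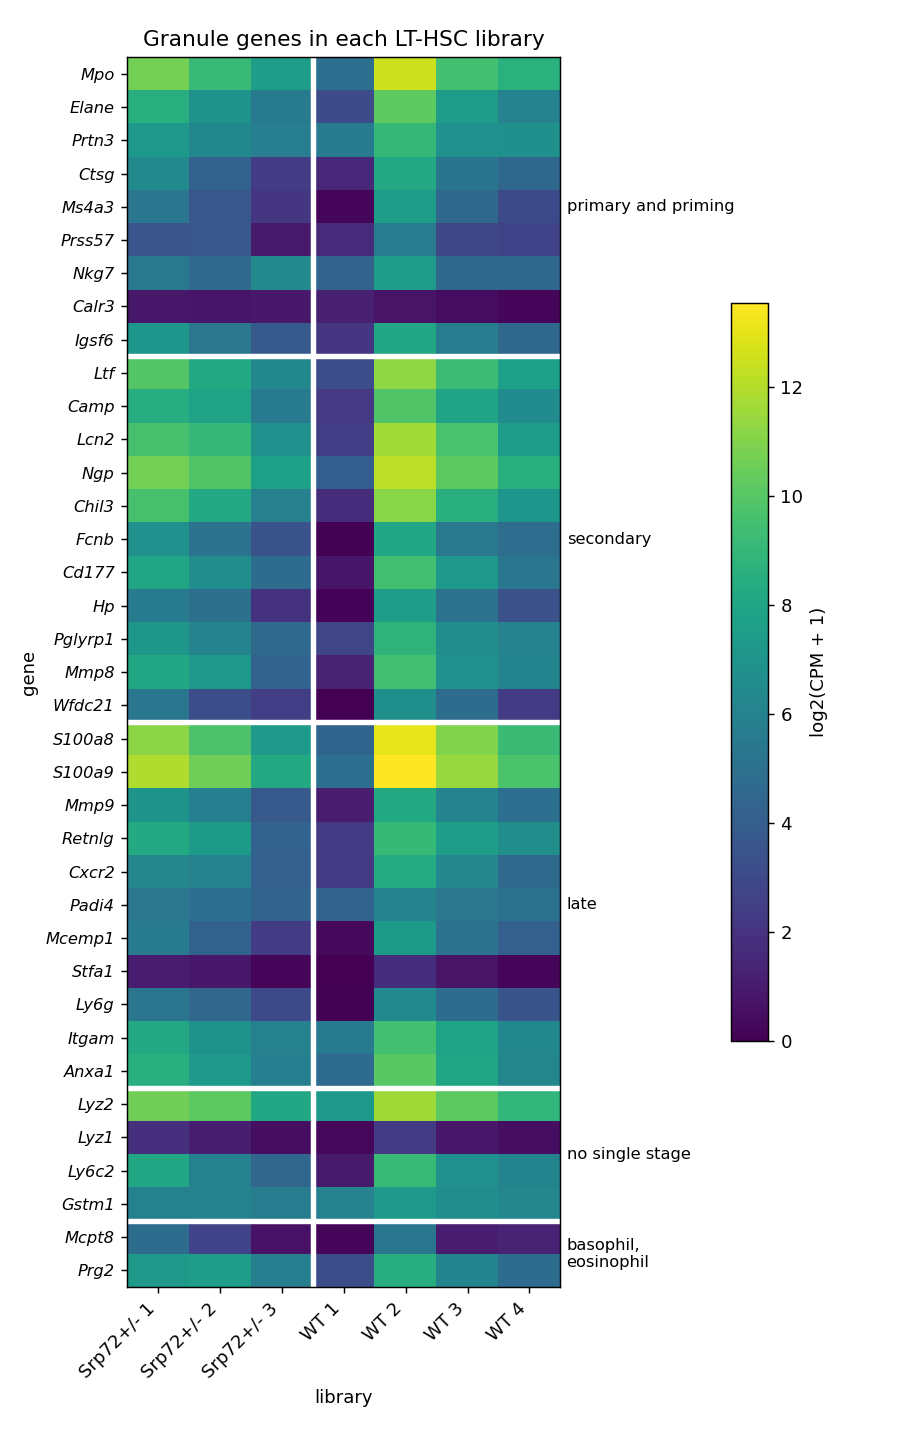
Level of each of the 37 genes (rows, grouped by stage) in the 3 Srp72+/- and 4 WT libraries (columns), coloured as log2(CPM + 1). Columns rather than genotypes stand out: WT 2 is brightest for 36 genes and WT 1 darkest for 33, while Calr3, Stfa1 and Lyz1 stay low throughout.

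The primary and priming genes were led by Mpo (chr11:87793581-87804413), whose product makes hypochlorous acid. It reached 1678, 577 and 190 CPM in the Srp72+/- libraries, against 29.8, 5873, 732 and 396 CPM in the WT libraries, given from 1 upwards here and below. Every Srp72+/- value lay inside the WT range, 197-fold from the lowest to the highest library. Elane, the gene of neutrophil elastase (chr10:79886247-79888215), followed the same order of libraries, at 355, 121 and 49.1 CPM in Srp72+/- and 7.85, 1179, 176 and 63.0 CPM in WT. Ctsg, the gene of cathepsin G (chr14:56099881-56102574), held 86.8, 17.5 and 4.31 CPM in Srp72+/- libraries and 1.85, 291, 36.3 and 21.6 CPM in WT libraries.

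Prtn3, which encodes proteinase 3 and lies 3.07 kb from Elane, moved less: 145, 79.4 and 55.0 CPM in Srp72+/- and 48.4, 508, 112 and 111 CPM in WT. Its range over the libraries was 10.5-fold, against 150-fold for Elane. Nkg7, a membrane protein of granules best known in natural killer and T cells, broke the order with 43.2, 24.5 and 84.5 CPM in Srp72+/- and 18.7, 176, 23.2 and 22.2 CPM in WT. Here Srp72+/- 3, which was the lowest of its group for 35 of the 37 genes (38.8% of all genes), was the highest. Of the other primary and priming genes, Igsf6, an immunoglobulin-family receptor of myeloid cells, reached 137 CPM at most in Srp72+/- and 270 CPM in WT. Ms4a3, known as a marker of granulocyte and monocyte progenitors, spanned 3.37 to 39.5 CPM in Srp72+/- and 0.17 to 194 CPM in WT. Prss57, a serine protease of the same granules, spanned 1.0 to 11.8 CPM in Srp72+/- and 2.19 to 50.7 CPM in WT.

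The secondary granule genes varied in the same way. Ltf, which encodes the iron-binding lactoferrin (chr9:111019271-111042767), held 956, 301 and 77.6 CPM in Srp72+/- libraries, against 8.35, 2508, 610 and 200 CPM in WT libraries. Ngp, a cathelicidin-related granule protein (chr9:110419747-110423012), held 1650, 944 and 207 CPM in Srp72+/- and 15.5, 4708, 1136 and 355 CPM in WT. Camp, the gene of the cathelicidin precursor (chr9:109847379-109849617), had 347, 225 and 48.5 CPM in Srp72+/- and 3.70, 947, 239 and 91.9 CPM in WT. These 3 genes shared the order of libraries of Mpo and Elane, with WT 1 far below the rest.

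Lcn2, whose product binds bacterial siderophores (chr2:32384633-32388252), stood at 781, 509 and 114 CPM in Srp72+/- and 4.6, 3259, 807 and 172 CPM in WT, a 709-fold range. Chil3, a chitinase-like protein with a close copy in the genome and therefore less certain, stood at 784, 290 and 59.2 CPM in Srp72+/- and 2.35, 2256, 373 and 136 CPM in WT. The other 6 are Fcnb (ficolin B), Cd177 (a surface glycoprotein of neutrophils), Hp (haptoglobin), Pglyrp1 (which binds peptidoglycan), Mmp8 (neutrophil collagenase) and Wfdc21 (a small secreted protein). Cd177 had the widest range of any gene above 3 counts in every library, 26.5 to 244 CPM in Srp72+/- and 0.67 to 690 CPM in WT, or 1025-fold. Mmp8 spanned 18.2 to 267 CPM in Srp72+/- and 1.57 to 710 CPM in WT, and Pglyrp1 24.8 to 140 CPM in Srp72+/- and 6.05 to 452 CPM in WT. Fcnb reached 115 CPM at most in Srp72+/- and 272 CPM in WT, Hp 47.7 CPM in Srp72+/- and 189 CPM in WT, and Wfdc21 38.8 CPM in Srp72+/- and 105 CPM in WT. These 3 genes were at or under 3 counts in WT 1.

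The late genes S100a9 and S100a8 reached the highest levels of the list. S100a9, a subunit of calprotectin (chr3:90692632-90695721), held 3872, 1549 and 301 CPM in Srp72+/- libraries and 29.7, 11885, 2830 and 832 CPM in WT libraries. S100a8, the other subunit (chr3:90668978-90670035), held 2361, 855 and 162 CPM in Srp72+/- and 19.3, 8443, 1990 and 606 CPM in WT. Set per length over transcripts of at least 100 bases of effective length, S100a9 and S100a8 also led the list: 6245 and 4003 TPM, a level per transcript length, in Srp72+/- 1 and 11356 and 8507 TPM in WT 2. Mpo came next in WT 2, with 774 TPM in Srp72+/- 1 and 1586 TPM in WT 2. A transcript of 648 bases annotated for decay gave 60.9% of the Mpo TPM over the libraries, with 24.3% of its reads in WT 2. The main coding transcript gave 30.9% of the TPM, with 66% of the reads in WT 2, which limits this rank of Mpo.

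Anxa1, which encodes annexin A1, had 376, 153 and 55.6 CPM in Srp72+/- and 25.3, 1090, 252 and 73.1 CPM in WT. Retnlg, a resistin-like secreted protein, had 304, 165 and 18 CPM in Srp72+/- and 3.92, 536, 190 and 103 CPM in WT. Ly6g, one of the sort's excluded antigens, had 38.2, 20.8 and 7.0 CPM in Srp72+/- and 0.06, 85.0, 26.6 and 10.5 CPM in WT. Its transcript was thus above 3 counts in 6 of the 7 libraries. Itgam, the alpha chain of Mac1, spanned 61.1 to 289 CPM in Srp72+/- and 47.2 to 726 CPM in WT. Cxcr2, the receptor for neutrophil-attracting chemokines, spanned 16.6 to 75.3 CPM in Srp72+/- and 3.87 to 317 CPM in WT, and Mmp9, gelatinase B, 12.6 to 128 CPM in Srp72+/- and 1.12 to 297 CPM in WT. Padi4, which citrullinates histones, stayed within 18.8 to 40.4 CPM in Srp72+/- and 19.0 to 65.4 CPM in WT, a range of 3.48-fold. Mcemp1, a membrane protein of myeloid and mast cells, spanned 4.40 to 47.9 CPM in Srp72+/- and 0.28 to 166 CPM in WT. Stfa1, a cysteine protease inhibitor with close copies, never passed 2.37 CPM.

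Among the genes of no single stage, Lyz2, the lysozyme of macrophages and neutrophils, held 1557, 1109 and 273 CPM in Srp72+/- and 147, 3128, 1136 and 473 CPM in WT. Lyz1, its near-identical neighbour at a distance of 5.48 kb, held 2.59, 1.20 and 0.42 CPM in Srp72+/- and 0.22, 4.35, 0.82 and 0.40 CPM in WT. Lyz1 took between 0.0717% and 0.166% of the reads of the pair, and how the authors' tool divided reads between the copies limits that share. Ly6c2, the other gene behind the Gr1 antigen, had 263, 61.8 and 21.3 CPM in Srp72+/- and 0.95, 551, 116 and 67.3 CPM in WT. Gstm1, a glutathione S-transferase, had 61.7, 62.2 and 52.6 CPM in Srp72+/- and 62.6, 157, 98.7 and 76.6 CPM in WT. It was the single gene of the list whose groups did not overlap, the highest Srp72+/- value lying just under the lowest WT value. Over all genes, 1.49% had Srp72+/- below WT without overlap, and none of the 37 had it above (2.08% of all genes).

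The 2 remaining genes belong to basophil and eosinophil granules. Mcpt8, a serine protease of basophils that lies 14.6 kb from Ctsg, had 26.6, 5.67 and 0.58 CPM in Srp72+/- and 0.17, 39.2, 1.15 and 1.57 CPM in WT. Prg2, the eosinophil major basic protein, had 162, 189 and 56.7 CPM in Srp72+/- and 8.46, 340, 68.7 and 26.8 CPM in WT. Both had their 2 highest Srp72+/- libraries above 3 of the 4 WT libraries, and both were highest in WT 2.

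By stage, the sums moved together from library to library. Primary and priming genes summed to 2500, 883 and 402 CPM in Srp72+/- and 114, 8540, 1160 and 650 CPM in WT. Secondary genes summed to 5370, 2660 and 594 CPM in Srp72+/- and 42.9, 16100, 3630 and 1170 CPM in WT. Late genes summed to 7530, 3030 and 657 CPM in Srp72+/- and 150, 23600, 5740 and 1810 CPM in WT. Of the late sum in WT 2, S100a9 held 11885 CPM and S100a8 8443 CPM. As mean log2 CPM over the genes of a stage, secondary genes stood above late genes in every library but WT 1. That mean was 9.66 for secondary and 8.44 for late genes in WT 2, and 0.63 and 1.85 in WT 1. The balance of stages differed most in WT 1. There the secondary genes made up 14% of the CPM of the 31 staged genes, against 34.9%, 40.5% and 35.9% in Srp72+/- and 32.2% to 34.5% in the other WT libraries. The primary genes made up 37.1% in WT 1, 24.3% in Srp72+/- 3 and 11% to 17.9% in the remaining 5 libraries. WT 1 and Srp72+/- 3 held the fewest granule transcripts in all, and Prtn3, Mpo and Nkg7 made up most of the primary sum in both. Prtn3 held 48.4 CPM in WT 1 and 55.0 CPM in Srp72+/- 3, of which a transcript with a retained intron took 41.2 and 38 CPM. Nkg7, best known in natural killer and T cells, held 18.7 and 84.5 CPM there. Per length, in TPM without very short transcripts, secondary genes made up 11.1% in WT 1, against 20.6% to 23.6% in Srp72+/- and 18.8% to 19.4% in the other WT libraries. The primary genes made up 38.2% in WT 1, 19.1% in Srp72+/- 3 and 5.8% to 10.8% in the other libraries.

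**Figure D2:**
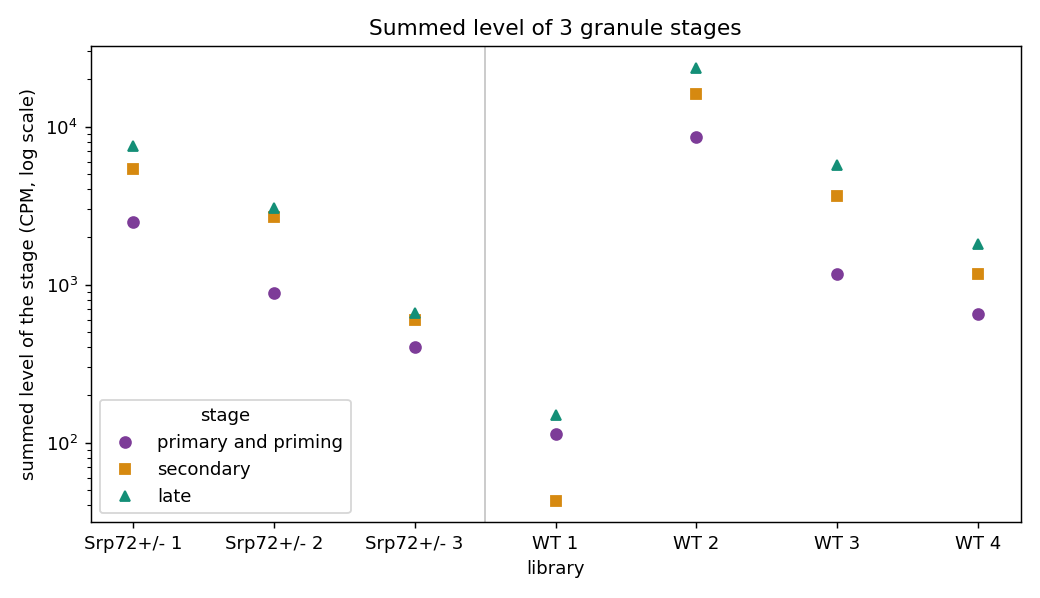
Summed level (CPM, log scale) of the 9 primary and priming, 11 secondary and 11 late genes in each library, Srp72+/- left of the line and WT right of it. The sums rank late, secondary, primary in 6 libraries, also in TPM without very short transcripts. In WT 1 the secondary sum, 42.9 CPM, lies below the primary sum, 114 CPM. S100a9 and S100a8 weigh heavily in the late sum. As mean log2 CPM over genes, secondary lies above late in the same 6 libraries.

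Genes with more than 3 counts in every library numbered 29 of the 37. Their highest library exceeded their lowest by 2.99-fold for Gstm1 to 1025-fold for Cd177, with a median of 150-fold, where the median over 16960 genes of that kind was 3.02-fold. The order in which WT 2 and Srp72+/- 1 came above WT 3 and Srp72+/- 2, and these above WT 4, Srp72+/- 3 and WT 1 in that sequence, was chosen after the values had been seen. It held for 23 of the 37 genes and for 0.955% of all genes tested. WT 2 followed by Srp72+/- 1 led for 29 genes and for 9.59% of all. The 8 genes without it were Prss57, Nkg7, Calr3, Lcn2, Cxcr2, Padi4, Gstm1 and Prg2. In WT 1, 11 of the genes were still above 10 CPM and 7 were at or below 3 counts.

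Markers of several other cell types were, like the granule genes, highest in WT 2. The 7 monocyte markers summed to 430, 114 and 52 CPM in Srp72+/- and 4.65, 1180, 125 and 93.1 CPM in WT, and between 5 and 7 of them were above 3 counts in each library. The 9 erythroid markers, all above 3 counts in every library, summed to 466 to 6740 CPM in Srp72+/- and 399 to 8980 CPM in WT, and the 8 B cell markers to 242 to 4230 CPM in Srp72+/- and 57.4 to 10300 CPM in WT, both with WT 2 and Srp72+/- 1 as the 2 highest libraries. The lowest library was WT 3 for the erythroid sum and WT 1 for the monocyte and B cell sums. Between 5 and 8 of the B cell markers were above 3 counts in each library. The 8 T and NK cell markers summed to 7.04 to 36.8 CPM in Srp72+/- and 24.9 to 60.7 CPM in WT, with WT 4 highest, and Klrb1c made up most of that sum in Srp72+/- 2 and in WT 1, 3 and 4. Without Klrb1c, a step chosen after the values had been seen, the other 7 summed to 25.7, 6.6 and 3.61 CPM in Srp72+/- and 2.24, 30.4, 5.95 and 8.5 CPM in WT, again highest in WT 2 and Srp72+/- 1. The 5 megakaryocyte and platelet markers did not follow, at 99.9 to 705 CPM in Srp72+/- and 22.7 to 243 CPM in WT. The part of such cells in the granule values was not tested.

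The study's comparison is that of genotype. None of the 37 genes passed a false discovery rate of 0.05 in edgeR's quasi-likelihood test, and of all 20314 genes 0% did (smallest Benjamini-Hochberg adjusted p = 0.9998). At an unadjusted p under 0.05 there were again 0 of the 37, against 1.01% of all genes higher and 0.788% lower in Srp72+/-. DESeq2 called 10 genes, or 0.0244% of the 40992 genes with any count, none of them in the list. Without WT 4, edgeR called 1 gene (0.00507%), also not in the list. The fitted value was lower in Srp72+/- for 34 of the 37, against 50.7% of all genes, and higher (49.3% of all genes) for Calr3 (0.46 on the log2 scale), Prg2 (0.29) and Mcpt8 (0.06). The median log2 fold change was -1.04 over the primary and priming genes, -0.87 over the secondary and -0.80 over the late genes, beside -0.0067 over all genes. Standard errors were derived from the test, as the size of the log2 fold change over the square root of its F statistic. They ran from 0.33 for Gstm1 to 1.67 for Mcpt8. Differences were smaller than their own standard error for all of the 37 but Prtn3 and Gstm1.

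S100a9 averaged 1907 ± 1812 CPM in Srp72+/- and 3894 ± 5456 CPM in WT (SD, n = 3 and 4), a log2 fold change of -1.03 with an SE of 1.49. Mpo averaged 815 ± 772 CPM in Srp72+/- and 1758 ± 2758 CPM in WT (SD, n = 3 and 4), or -1.11 with an SE of 1.42. In both, the SD of the WT group exceeded its mean. Gstm1 averaged 58.8 ± 5.4 CPM in Srp72+/- and 98.8 ± 41.7 CPM in WT (SD, n = 3 and 4), or -0.75 with an SE of 0.33, the smallest unadjusted p of the list in edgeR's quasi-likelihood test at 0.0516.

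The direction rested on WT 2. Without it, the fitted value was higher in Srp72+/- for 35 of the 37, against 53.1% of the genes then tested, and lower (46.9% of those genes) for Gstm1 (-0.43) and Padi4 (-0.05). The medians became 0.87 over the primary and priming genes, 0.90 over the secondary and 0.64 over the late genes, beside 0.036 over all genes. No gene passed the adjusted threshold in that fit either, and 3 of the 37 passed an unadjusted p of 0.05, all higher (2.61% of all genes); 0 were lower (2.23% of all genes). They were Nkg7 (log2 fold change 1.25, SE 0.41, unadjusted p = 0.0138), Mcpt8 (3.49, SE 1.30, unadjusted p = 0.0274) and Prg2 (1.97, SE 0.78, unadjusted p = 0.0393). With Srp72+/- 1 left out as well, 19 were higher (51.3% of all genes) and 18 lower (48.7%), with a median of 0.0040. Nkg7 alone stayed under an unadjusted p of 0.05 in edgeR's quasi-likelihood test (log2 fold change 1.36, SE 0.46, adjusted p = 0.9999). At that level 2.11% of all genes were higher and 1.92% lower.

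**Figure D3:**
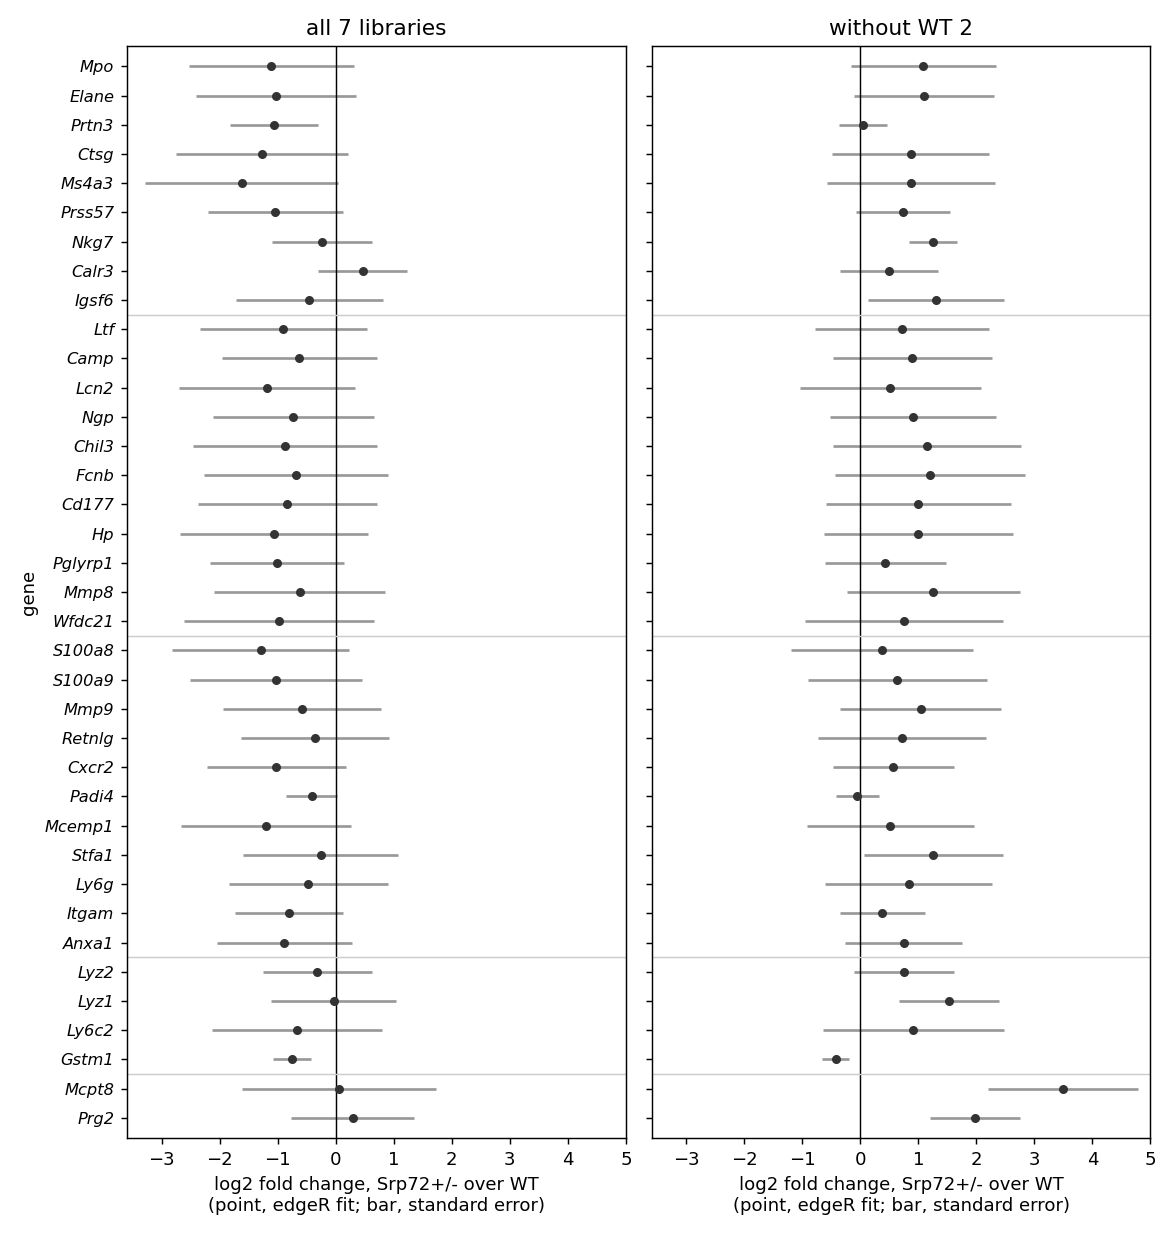
Fitted log2 fold change of Srp72+/- over WT for each gene (points) with its standard error derived from the F statistic (bars), from all 7 libraries on the left and without WT 2 on the right. Fitted values lie left of 0 for 34 genes with all libraries and right of 0 for 35 without WT 2.

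The annotated transcripts of Prtn3 and Nkg7 differed in how they varied. For Prtn3, the full-length coding transcript (chr10:79879614-79883174) had 53.7, 16.2 and 7.12 CPM in Srp72+/- and 3.03, 302, 33.8 and 17.5 CPM in WT. A transcript with a retained intron (chr10:79880980-79883174) had 76.9, 38.2 and 38 CPM in Srp72+/- and 41.2, 134, 64 and 75.9 CPM in WT. The coding transcript thus ranked the libraries as Ctsg did, while the retained-intron transcript varied less and held 85.1% of the gene's reads in WT 1. For Nkg7, the longest coding transcript (chr7:43437073-43438249) had 7.49, 8.56 and 2.16 CPM in Srp72+/- and 4.7, 36.6, 8.52 and 10.1 CPM in WT. A shorter coding transcript (chr7:43437130-43438246) had 18.8, 9.03 and 48.8 CPM in Srp72+/- and 8.17, 76.7, 7.5 and 5.6 CPM in WT. The high Nkg7 total of Srp72+/- 3 lay in the shorter coding and the retained-intron transcripts, which held 57.7% and 39.8% of the gene's reads there, against 2.56% for the longest. Reads shared between such overlapping transcripts are divided by estimation.

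**Figure D4:**
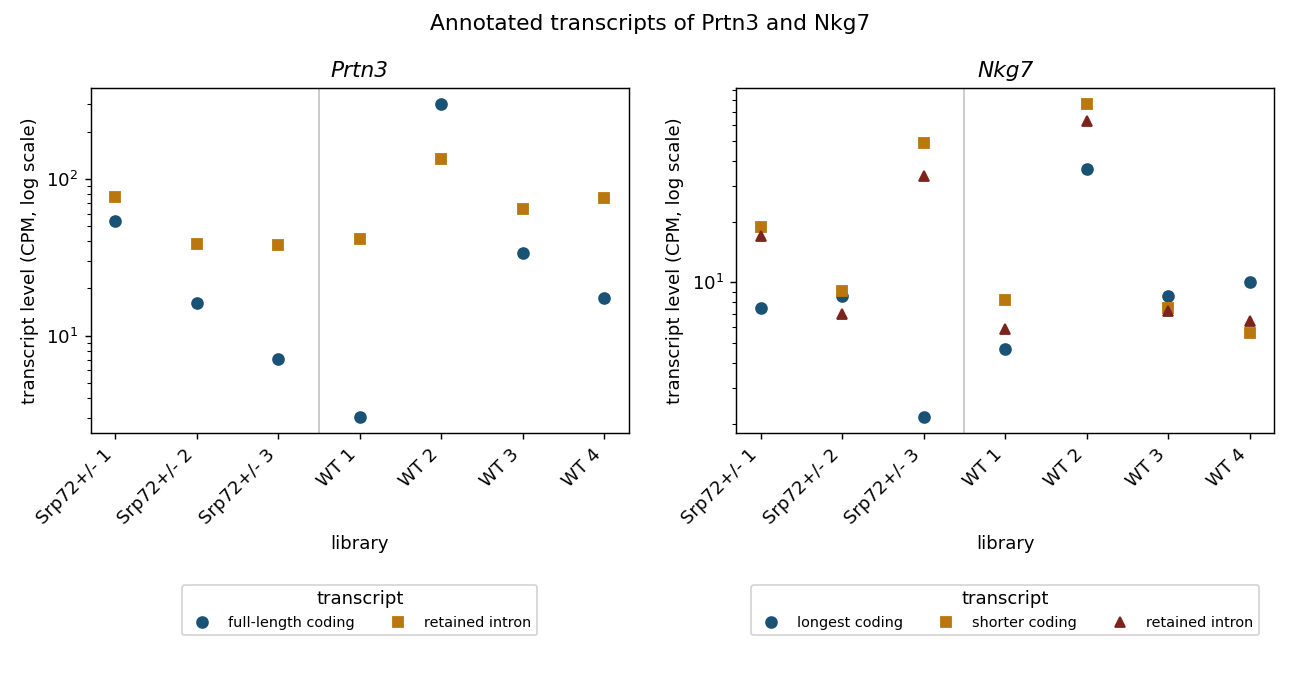
Level (CPM, log scale) of annotated transcripts of Prtn3 (left) and Nkg7 (right) in each library, Srp72+/- left of the grey line and WT right of it. The full-length Prtn3 transcript spans 3.03 to 302 CPM and its retained-intron transcript 38 to 134 CPM; in Srp72+/- 3 the longest Nkg7 transcript is at 2.16 CPM and the shorter one at 48.8 CPM.

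Very short annotated transcripts shaped the per-length levels of 5 genes. Transcripts with an effective length under 100 bases gave 88.9% of the TPM of Chil3, 79.7% of Ly6g, 74.6% of Ltf, 69.4% of Anxa1 and 15.1% of Itgam, over the 7 libraries. For Chil3 this was 1 transcript of 174 bases with an effective length of 7 bases, which held at most 7.73% of the gene's reads. TPM of these genes is therefore given here only without such transcripts: Ltf then stood at 866 TPM in Srp72+/- 1 and 1257 TPM in WT 2.

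Ratios between genes within a library set the changing total aside. For 15 pairs, chosen after the levels had been seen, the ratio was compared between genotypes by an exact two-sided permutation test over the 35 possible splits, whose smallest possible p is 0.0286. S100a9 over S100a8 was 1.64, 1.81 and 1.86 in Srp72+/- and 1.54, 1.41, 1.42 and 1.37 in WT. All Srp72+/- values exceeded all WT values, by 0.30 on the log2 scale (exact p = 0.0286, 0.429 after Benjamini-Hochberg adjustment over the 15 ratios) and by 0.29 without WT 2. Of the 20313 genes other than S100a8, 0.315% had a ratio to S100a8 that was higher in Srp72+/- without overlap and 0.00492% one that was lower. All Srp72+/- values of S100a8 lay between its WT extremes of 19.3 and 8443 CPM, so the ratio of a steady gene must overlap. These shares therefore cannot say how unusual the separation of S100a9 is. The ratio of S100a9 to S100a8 did not pass the adjusted threshold. A single ratio at the smallest possible p could not pass it over 15 ratios, so that outcome decides nothing. The adjustment also does not cover the choice of the pairs.

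The other 14 ratios overlapped between genotypes. Camp over Ngp stayed between 0.201 and 0.259 in all libraries, Elane over Mpo between 0.159 and 0.264 and Ltf over S100a9 between 0.194 and 0.281, while each of these genes varied over 100-fold. Mpo over S100a9, primary against late, was 0.433, 0.372 and 0.631 in Srp72+/- and 1.0, 0.494, 0.259 and 0.477 in WT. Ctsg over Mpo was 0.0517, 0.0303 and 0.0227 in Srp72+/- and 0.0621, 0.0495, 0.0496 and 0.0544 in WT (exact permutation p = 0.0857, adjusted 0.641). Prg2 over S100a9 ran from 0.0419 to 0.188 in Srp72+/- and from 0.0243 to 0.285 in WT.

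**Figure D5:**
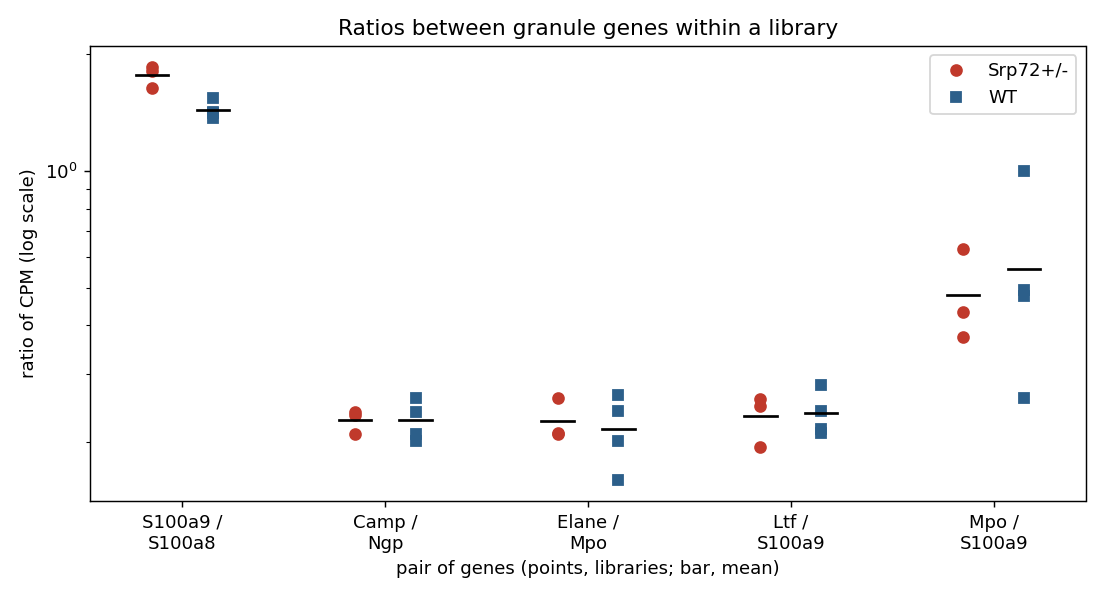
Ratio of CPM between 5 pairs of genes (log scale), each point a library and each bar the mean of its genotype, Srp72+/- left of WT within a pair. For S100a9 over S100a8 the 3 Srp72+/- points, 1.64 to 1.86, lie above the 4 WT points, 1.37 to 1.54; the other 4 pairs overlap.

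Further genes of the granule programme were taken from 5 lists that hold 55 genes. None passed the adjusted threshold in edgeR with or without WT 2. Of 14 granulocyte transcription factors and receptors, 11 were fitted lower in Srp72+/- and 3 higher, and their median of -0.71 on the log2 scale became 0.25 without WT 2. The smallest p values among them belonged to Cebpb (-0.90, SE 0.74) and Cebpd (-0.92, SE 0.77), both C/EBP factors. Of 11 genes tested for processing, packing and inhibiting granule proteins, all were fitted lower, with a median of -0.62, and 6 were lower without WT 2, with a median of -0.17. Ctsc, the protease that activates the granule serine proteases, was the 1 gene of these lists under an unadjusted p of 0.05 with all libraries, or 1.85% of the 54 tested, a share close to that over all genes (1.01% higher and 0.788% lower). It stood at 50.7, 48.7 and 24.2 CPM in Srp72+/- and 54.3, 179.8, 66.7 and 60.7 CPM in WT, a log2 fold change of -1.13 (SE 0.49) that was -0.55 (SE 0.30) without WT 2. No Srp72+/- value of Ctsc reached the lowest WT value, a pattern found in 1.49% of all genes. Cd63, a membrane protein of primary granules, had -0.63 (SE 0.29) with all libraries and -0.54 (SE 0.29) without WT 2, and its groups overlapped.

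All 7 NADPH oxidase genes, which make the oxidative burst, were fitted lower with all libraries (median -0.63) and higher without WT 2 (median 0.86). Cyba had -0.79 (SE 0.74) and Rac2 -0.50 (SE 0.52) with all libraries. Of 12 genes of the neutrophil surface and of mobility, 11 were lower with all libraries (median -0.52) and all 12 higher without WT 2 (median 0.91). Clec4e, a lectin receptor, had -1.09 (SE 0.96), and Ifitm6, an interferon-induced membrane protein, -1.52 (SE 1.64). Of 10 mast cell, basophil and eosinophil genes, 6 were lower with all libraries (median -0.16), and all 10 were higher without WT 2, with a median of 1.69. Cpa3, the mast cell carboxypeptidase, had -1.34 (SE 1.23) and Hdc, which makes histamine, -0.96 (SE 1.25).

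Without WT 2, 4 of the 54 genes of these lists were under an unadjusted p of 0.05 in edgeR, all higher in Srp72+/- (2.61% of all genes) and none lower (2.23%). They are named after their values were seen. Ear2, an eosinophil-associated ribonuclease, had 37, 21.4 and 9.61 CPM in Srp72+/- and 3.42, 76.9, 3.74 and 4.27 CPM in WT. Its log2 fold change was 2.57 (SE 0.50, Benjamini-Hochberg adjusted p = 0.791) without WT 2, 2.02 (SE 0.48) without Srp72+/- 1 as well, and 0.04 (SE 1.16) with all libraries. The other 3, given without WT 2, were Ltb4r1, a leukotriene receptor (3.01, SE 0.99), Prg3, an eosinophil granule protein (3.05, SE 1.33), and Cxcr4, the chemokine receptor that holds cells in the marrow (0.83, SE 0.35).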

How the data were processed

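RNA of sorted LT-HSCs was measured in 3 Srp72+/- and 4 WT libraries, grouped by their titles and genotype labels. Per the labels' protocols, a Qiagen kit yielded the RNA, NuGEN's Ovation V2 kit amplified it and Illumina's TruSeq V2 kit made the libraries; amplification of small inputs can enlarge differences between libraries. For each transcript the deposited tables give an estimated count, also called an expected count, a TPM value and an effective length. Per the submitters' processing notes, Salmon 0.12.0 made them, with mm10 and GRCm38.p6 as the builds named. No transcript release, strand setting, bias option or batch is given in the sources used.

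Of 136288 transcripts, 136176 matched GENCODE M21 on GRCm38. The 112 others, with 0.0413% to 0.0622% of the reads, were not used. Counts were added up per gene, rounded to whole numbers, scaled by TMM and tested with edgeR 4.0.16 (quasi-likelihood, robust; R 4.3.3) after a filter of at least 10 counts and 15 in total, over all 20314 genes, at a Benjamini-Hochberg false discovery rate of 0.05. CPM are scaled by TMM. Standard errors of edgeR fits are the size of the log2 fold change divided by the square root of its quasi-likelihood F statistic. The common biological coefficient of variation was 0.628. DESeq2 1.42.0 was an alternative. The script was tested on simulated counts that spread less than the real libraries. Amplified reads carry no molecular identifiers and can be copies, so the limit of 3 counts covers counting error only. Since no source states separate cages or litters, p-values measure only the spread between these samples. Reads of close copies (Lyz1 and Lyz2, Chil3, Stfa1) were divided by the authors' tool.

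The 37 genes, their stages and the further lists were chosen with earlier results of these data known. Every gene of the list is named, with the value in each library for up to 5 genes per stage with the highest mean TPM; of the further lists, the 2 genes with the smallest p and any past the threshold are named. Alternatives were other scalings (RLE, upper quartile), no filter or a stricter one, DESeq2, a transcript length offset, a replicate block, each library left out, and WT 2 left out with Srp72+/- 1. Replicate numbers were not used to pair the libraries in the main fit.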

Additional observations from a re-analysis of the deposited data

Results flagged for a closer look

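Nkg7 was flagged because 1 library of 4 stood far from the rest. Among the WT libraries (18.7, 176, 23.2 and 22.2 CPM), the gap between WT 2 and its nearest neighbour on the log2 CPM scale was 0.904 of the group's whole range, above Dixon's 95% critical value of 0.829. Chance flags about 5% of groups, and on that scale 1 of the 42 levels examined (genes and stages) was flagged. The count depends on the scale: on CPM without a log, tried after the data had been seen, 15 of 42 passed the same value, all with WT 2 highest, among them Nkg7 (0.971) and Mpo (0.88). Nkg7 is best known in natural killer and T cells. The 8 T and NK cell markers summed to 36.7 CPM in WT 2, and to 24.9 to 60.7 CPM in the other WT libraries. Without Klrb1c the other 7 summed to 30.4 CPM in WT 2, and to 2.24, 5.95 and 8.5 CPM in WT 1, 3 and 4. The part of such cells in the Nkg7 level was not tested.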

How the results depend on the processing

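No listed gene was called in any alternative run. Over all genes, DESeq2 called 10 and edgeR 0; leaving out single libraries gave 0 to 1, the 1 without WT 4. Scaling, filters, DESeq2, the length offset and the block kept the direction of the fitted values except for Mcpt8, at -0.0040 with RLE scaling, -0.0029 in DESeq2 and -0.14 with the replicate block, Lyz1, at 0.056 with upper-quartile scaling, and Nkg7, at 0.30 with the replicate block. The block changed no call. Same-numbered libraries deviated with correlations of -0.316, -0.162 and 0.00177. These give no sign of pairing, but with so few libraries they cannot exclude it. The stricter filter removed Calr3 and Stfa1, which then had no value.

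Leaving out libraries, WT 2 with or without Srp72+/- 1 included, moved the median log2 fold change from -1.74 to 0.87 for the primary and priming genes, -1.82 to 0.90 for the secondary and -1.55 to 0.64 for the late genes; the positive ends are without WT 2. Over the same settings the fitted values of single genes spanned Mpo -2.24 to 1.08, Elane -2.11 to 1.09, Prtn3 -1.57 to 0.045, Ctsg -3.05 to 0.86, Ms4a3 -2.94 to 0.87, Prss57 -1.50 to 0.74, Nkg7 -0.83 to 1.36, Igsf6 -1.74 to 1.30, Ltf -2.17 to 0.71, Camp -1.26 to 0.90, Lcn2 -1.80 to 0.52, Ngp -1.47 to 0.90, Chil3 -2.03 to 1.15, Fcnb -1.97 to 1.20, Cd177 -1.86 to 0.995, Hp -1.78 to 0.997, Pglyrp1 -1.82 to 0.43, Mmp8 -1.45 to 1.26, Wfdc21 -2.41 to 0.75, S100a8 -2.48 to 0.37, S100a9 -2.11 to 0.64, Mmp9 -1.55 to 1.04, Retnlg -1.22 to 0.72, Cxcr2 -1.43 to 0.57, Mcemp1 -2.33 to 0.52, Stfa1 -0.81 to 1.26, Ly6g -1.17 to 0.83, Itgam -1.64 to 0.38, Anxa1 -1.82 to 0.74, Lyz2 -0.85 to 0.75, Lyz1 -0.86 to 1.53, Ly6c2 -2.18 to 0.91, Mcpt8 -1.80 to 3.49, Prg2 -0.091 to 1.97. Calr3 (0.099 to 1.13), Gstm1 (-0.91 to -0.43) and Padi4 (-0.73 to -0.055) kept their direction in all of these settings. The cause of the shifts was not tested. The highest over the lowest library for primary sums was 33.5-fold in TPM, with or without short transcripts, and 40.5-fold as mean log2 CPM; for secondary sums it was 235-fold in TPM without short transcripts and for late sums 96.3-fold as mean log2 CPM. With 3 and 4 libraries, standard errors of 0.33 to 1.67 on the log2 scale limit what the fits can resolve.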
